A study of Mus musculus with 3 samples.

Results

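The genes described here are the receptors of the ERBB family (Egfr, Erbb2, Erbb3 and Erbb4), a group of their EGF-family ligands (Areg, Ereg, Hbegf, Tgfa and Btc) and the feedback inhibitor Errfi1. They were taken by name, and every probe on the array whose transcript accession maps to one of these symbols was used. This gave 12 probes for 10 genes, of 21154 gene symbols on the array. By the scanner software's flag for signals well above background, which dim spots can also carry, 9 of the 10 were measured, and 9 members were tested among 21743 genes and transcripts.

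Primary cultures of mammary tumor cells from MMTV-PyMT mice, in which the MMTV promoter drives the polyoma middle T oncogene in mammary epithelium, were treated with RANK ligand (RL) or left untreated. RL was present for 24 h, at 1000 µg/ml by the deposited labels and at 1 µg/mL by the methods. RNA of both cultures of a tumor, each in its own dye, shared 1 Agilent mouse expression array, for 3 tumors, 3 arrays and 6 channels, all on 1 slide. RL cultures carried Cy3 in tumors 1 and 3 and Cy5 in tumor 2. By the methods, tumor cells from RANK+/+ or RANK−/− transplants were plated as acini on growth factor-reduced Matrigel, and RL was added 24 h later. The methods do not state which RANK genotype the RL arrays used. The medium held serum, insulin, cholera toxin and EGF, itself a ligand of EGFR. Control cultures in this medium were not free of ERBB stimulation. The paper names another series for its preclinical arrays, and these arrays were matched to its methods by their labels. The labels give neither the strain nor the age of the mice, and by the methods the PyMT mice were on a C57BL/6 background. Levels are normalized log2 intensities of a probe, and changes are log2 ratios of RL over control.

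ERBB receptors are tyrosine kinases at the cell surface that pair with one another after an EGF-family ligand binds and then signal through the RAS to ERK and PI3K to AKT cascades. The ligands are made as membrane-bound precursors and released by metalloproteases, and amphiregulin is the ligand through which estrogen signaling drives ductal growth of the mammary gland. ERBB2 binds no known ligand and ERBB3 has little kinase activity, so these receptors depend on partners, while ERRFI1, also called MIG6, is induced by receptor activation and inhibits the kinase.

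With RL, Areg and Errfi1 were higher and Erbb3 was lower than in the control culture of the same tumor in each of the 3 tumors. Hbegf was also higher in each, though by only 0.02 and 0.04 in tumors 2 and 3. No member passed an adjusted p of 0.05 in limma, 0 of 9, where 0.0276% of all genes tested did. At an unadjusted p under 0.05, 2 members were higher, Areg and Errfi1, against 3.5% of all genes tested. At the same level 1 member was lower, Erbb3, against 3.58% of all genes. Ratios lay above 0 in each of the 3 tumors for 3 members, Areg, Errfi1 and Hbegf, as it was for 14.1% of the genes with a value on every array. They lay below 0 in each of the 3 tumors for 1 member, Erbb3, as for 13.5% of those genes. A dye term in limma called 0 of 9 members and 1.3% of all genes, and a rank product called 0 of 9 and 0.405% of all genes at a proportion of false positives (pfp) under 0.05. Across all genes, which are not independent replicates, the ratios of tumors 1 and 3, with RL in Cy3, had a Pearson's r of 0.453, and those of tumor 2, with RL in Cy5, had −0.112 with tumor 1 and −0.108 with tumor 3. The median log2 change was 0.07 over the 9 members and −0.00187 over all genes.

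**Figure D1:**
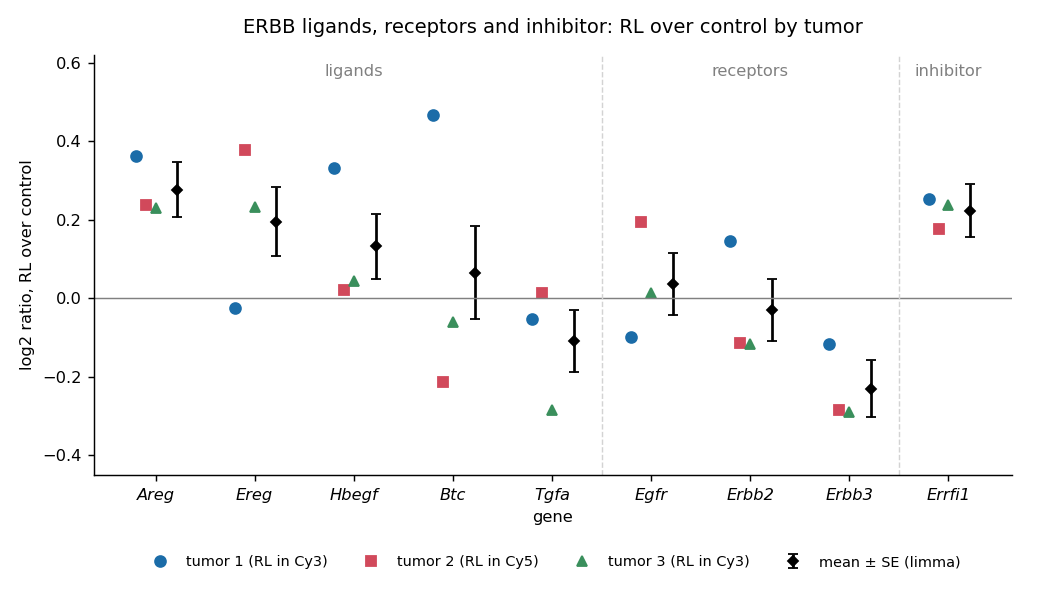
Log2 ratio of RL over control (vertical axis) for the 9 members tested, as 1 point for each tumor with the mean and its standard error from limma in black. All points of Areg, Errfi1 and Hbegf lie above 0 and all points of Erbb3 below 0.

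Areg encodes amphiregulin and had the highest mean ratio of the members. Its level in the control cultures of tumors 1, 2 and 3 was 10.75, 10.92 and 10.92. In the RL cultures it was 11.11, 11.16 and 11.15. Every RL culture lay above every control culture. The share of all genes whose groups do not overlap was not counted, so this is a description. The RL cultures lay closer together than the controls, with an SD of 0.03 against 0.10. Tumors 1, 2 and 3 had log2 ratios of RL over control of 0.36, 0.24 and 0.23. The mean was 0.28 (SE 0.07, 95% confidence interval 0.12 to 0.44, n = 3 tumors), a 1.21-fold higher level, with an adjusted p of 0.391 from limma. With a dye term the log2 change was 0.27 and the adjusted p 0.0702. Without tumor 2 it was 0.30 with an adjusted p of 0.0302, and over the 15 other ways of processing the adjusted p of Areg ranged from that value to 1.00. The remaining arrays then both carry RL in Cy3, so RL and dye cannot be told apart in that value.

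Ereg encodes epiregulin, a ligand of EGFR and ERBB4. Its level was 9.42, 8.70 and 8.75 in the control cultures of tumors 1, 2 and 3. With RL it was 9.40, 9.07 and 8.98. Tumor 1 was the highest in both cultures and had no higher level with RL, while tumors 2 and 3 did, and the groups overlapped. The ratios were −0.02, 0.38 and 0.23, with a mean of 0.20 (SE 0.09, 95% confidence interval −0.00396 to 0.39, adjusted p 0.708 from limma). The mean was 0.30 without tumor 1 and 0.10 without tumor 2.

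Hbegf encodes heparin-binding EGF-like growth factor. Its control level was 11.03, 10.90 and 11.43 in tumors 1, 2 and 3, and its ratios were 0.33, 0.02 and 0.04. The value of tumor 1 set most of the mean of 0.13 (SE 0.08, adjusted p 0.805 from limma), which was 0.03 without that tumor. Btc encodes betacellulin, and it differed most between tumors, with ratios of 0.47, −0.21 and −0.06 and a mean of 0.07 (SE 0.12, adjusted p 0.938). Its mean was −0.14 without tumor 1. Tgfa encodes transforming growth factor alpha and was the only ligand of the 5 with a mean below 0, at −0.11 (SE 0.08, adjusted p 0.837), from ratios of −0.05, 0.01 and −0.28. Tumor 3 set most of it, and without that tumor the mean was −0.02. For Hbegf, Btc and Tgfa the control and RL cultures overlapped. These 3 ligands shared an order of tumors, lowest in tumor 2 and highest in tumor 3 in the control cultures. In those cultures Tgfa was at 7.32, 6.93 and 7.70, and Btc at 7.23, 6.94 and 7.58, in tumors 1, 2 and 3. The control of tumor 2 carried Cy3 and the other controls Cy5. With RL, where the dyes were exchanged, Hbegf was at 11.36, 10.92 and 11.47, Tgfa at 7.27, 6.94 and 7.41 and Btc at 7.70, 6.73 and 7.52. Tumor 2 was the lowest with RL too for each of these ligands, while for Btc tumor 1 was then the highest. Both channels of an array share its average level, so the order with RL is not independent of that in the controls. Differences between tumors were not tested.

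**Figure D2:**
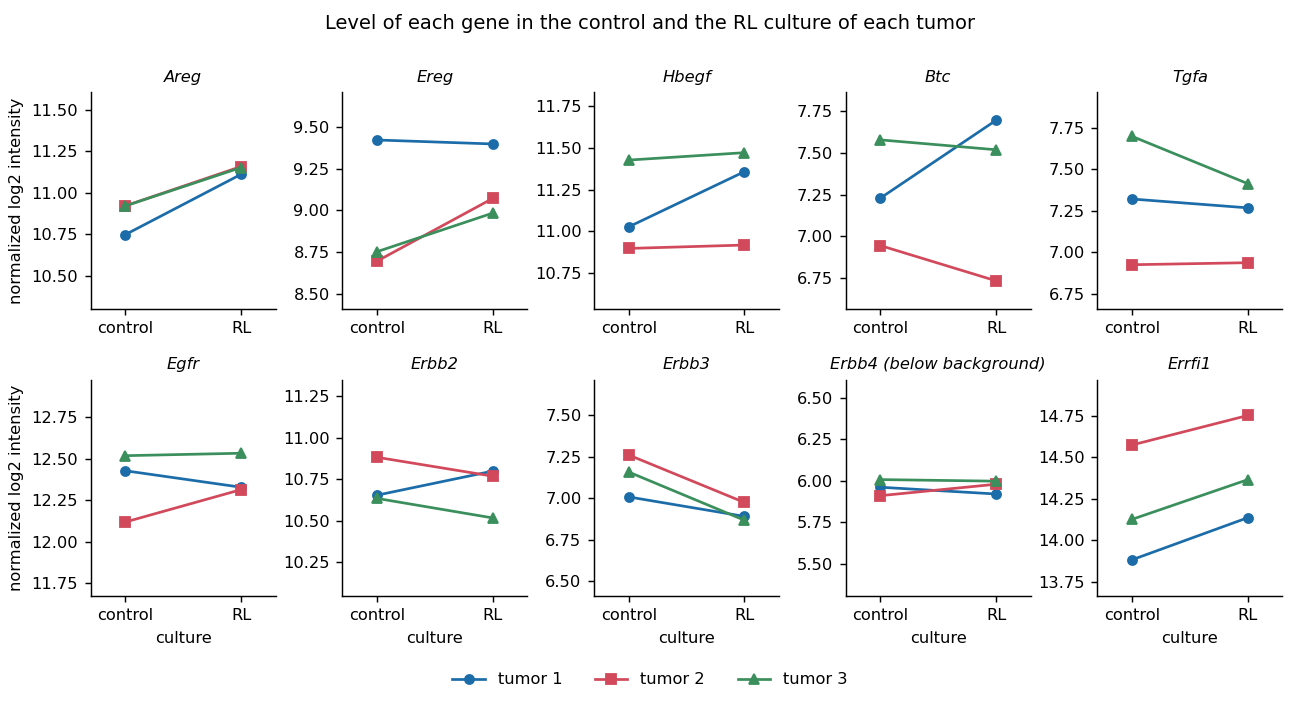
Normalized log2 intensity (vertical axes, each spanning the same range) of the 10 members in the control and the RL culture, with a line for each tumor. Lines of Areg, Errfi1 and Hbegf go up in every tumor, for Hbegf by little in tumors 2 and 3, and those of Erbb3 go down. Errfi1 differs more between tumors than between cultures.

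Epgn, which encodes the EGF-family ligand epigen, was the highest of the other ligands listed. In the RefSeq table of GRCm38.p6, the ligand genes Epgn, Ereg, Areg and Btc lie in this order on mouse chromosome 5, with no other protein-coding gene among them. The Epgn level was 8.94, 9.93 and 9.88 in the control cultures of tumors 1, 2 and 3. With RL it was 9.32, 10.17 and 10.26, higher in each tumor, though the groups overlapped because tumor 1 was low in both cultures. The ratios were 0.38, 0.24 and 0.37, with a mean of 0.33 (SE 0.07, adjusted p 0.281 from limma and 0.0226 with a dye term). Along the chromosome the mean log2 changes were 0.33 for Epgn, 0.20 for Ereg, 0.28 for Areg and 0.07 for Btc, each above 0 as reported. Btc was below 0 in tumors 2 and 3, without tumor 1 and with a dye term, at −0.00385, and Ereg was below 0 in tumor 1. Median centering of the arrays, used instead of loess, gave all genes a median of −0.11 and put Btc at −0.07, which is 0.04 relative to that median. Of the 6 other ligands listed, 4 were tested, with a median of 0.01 and a lowest value of −0.07 for Nrg1. Nrg3 and Nrg4 were not well above background in the channels needed.

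Egfr encodes the receptor of amphiregulin and of the EGF in the medium. It was measured by 3 probes. The brightest of them, printed in 10 spots, had control levels of 12.43, 12.12 and 12.52 in tumors 1, 2 and 3. Its ratios were −0.10, 0.19 and 0.01, so the tumors differed in sign and the groups overlapped. The mean was 0.04 (SE 0.08, adjusted p 0.946 from limma), and under median centering it was −0.13, or −0.02 relative to the median of all genes. The other probes, both designed on another transcript variant, had means of −0.01 and −0.10, so the probes did not share a direction. In tumors 1, 2 and 3 the ratios of the first were 0.11, −0.04 and −0.09. Those of the second were −0.08, −0.05 and −0.18, below 0 in each tumor.

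Erbb2 encodes the receptor known as HER2 or NEU. Its ratios were 0.14, −0.11 and −0.12 in tumors 1, 2 and 3 from a probe in 10 spots, with a mean of −0.03 (SE 0.08, adjusted p 0.961 from limma), and control and RL cultures overlapped. Erbb4 had 1 probe, which was not well above background in any of the 6 channels, so no ratio is given.

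Erbb3 encodes the receptor that, bound to neuregulin and paired with ERBB2, recruits PI3K. Its level was 7.01, 7.26 and 7.16 in the control cultures of tumors 1, 2 and 3. With RL it was 6.89, 6.98 and 6.87. Every RL culture lay below every control culture, a description again, as the share of all genes without overlap was not counted. The ratios were −0.12, −0.29 and −0.29, with a mean of −0.23 (SE 0.07, 95% confidence interval −0.40 to −0.07, adjusted p 0.525 from limma and 0.120 with a dye term). The probe was dim. Its spots read 154, 95 and 180 in the control channels, over a local background of 69, 38 and 73, and the offset added to all intensities makes ratios of dim probes smaller. In the authors' log2 ratios the mean was −0.35 (adjusted p 0.373 from limma). Without background correction it was −0.25 (adjusted p 0.506 from limma). The part of the offset in these differences was not tested.

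Errfi1 encodes the feedback inhibitor of the ERBB kinases. Its level was 13.88, 14.57 and 14.13 in the control cultures of tumors 1, 2 and 3. With RL it was 14.14, 14.75 and 14.36. The RL culture was the higher in each tumor, but tumor 2 without RL lay above tumors 1 and 3 with RL, so the groups overlapped. The ratios of 0.25, 0.18 and 0.24 were the closest together of the 9 members, with an SD of 0.04. The mean was 0.22 (SE 0.07, 95% confidence interval 0.07 to 0.38, adjusted p 0.511 from limma and 0.212 with a dye term), a 1.17-fold higher level. Under median centering it was 0.04, and 0.16 relative to the median of all genes. The SD over the control cultures was 0.35, larger than this difference.

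Areg, Errfi1 and Hbegf had ratios above 0 in every tumor. Promoters are shown for Areg and Errfi1, from RefSeq with the coordinates of GRCm38.p6. The promoter table held entries for 7 of the 10 members, and Erbb3, Ereg and Hbegf were without one. The windows are the 250 bases before the start, at chr5:91139349-91139598 on the + strand for Areg and at chr4:150854820-150855069 on the + strand for Errfi1, which has another start upstream in the table. Capitals mark the cyclic AMP response element TGACGTCA and the TATA box TATAAA.
Areg: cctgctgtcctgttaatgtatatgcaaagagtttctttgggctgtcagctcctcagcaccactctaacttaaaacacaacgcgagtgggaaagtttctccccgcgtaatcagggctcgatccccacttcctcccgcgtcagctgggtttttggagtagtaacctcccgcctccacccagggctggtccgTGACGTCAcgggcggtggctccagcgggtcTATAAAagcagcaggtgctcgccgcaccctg
Errfi1: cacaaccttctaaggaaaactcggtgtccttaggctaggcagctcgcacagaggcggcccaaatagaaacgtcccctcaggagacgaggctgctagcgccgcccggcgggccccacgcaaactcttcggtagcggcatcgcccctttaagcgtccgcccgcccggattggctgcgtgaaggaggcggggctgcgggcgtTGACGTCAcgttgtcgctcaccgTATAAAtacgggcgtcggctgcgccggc
In Areg the response element lies at −61 to −54 and the TATA box at −31 to −26 from the start. In Errfi1 they lie at −51 to −44 and at −28 to −23. On either strand of the windows of this length in the table, TGACGTCA is in 1.55%, TATAAA in 12.4% and both in 0.119%. Also searched on both strands were the AP-1 motif TGACTCA, in 4.46% of all windows, and the kappaB consensus, in 3.9%, and neither is in a window of the members. The windows of Egfr, Erbb2, Erbb4, Tgfa and Btc and the upstream window of Errfi1 hold none of these motifs. The motifs were chosen after the values were seen, and a match describes the letters only.

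Over the 6 channels, the genes with a symbol whose level was most like that of Areg were Thbs4, Arglu1 and Zfp598, with Pearson's r of 0.974, 0.973 and 0.967. Thbs4 had ratios of 0.36, 0.23 and 0.35 in tumors 1, 2 and 3. The genes most like Erbb3 were Rfx2, Tmem87b and Zfp518a, with r of 0.989, 0.958 and 0.957. The channels of a tumor share an array, and these were the highest of all genes compared, so r is a description.

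Other genes of the pathway were read from lists, in each of which no gene passed the adjusted p of 0.05 in limma. The counts at an unadjusted p under 0.05 stand beside 3.5% of all genes higher and 3.58% lower. At an unadjusted p under 0.05, 0 of 8 genes that release ligands or control the release were higher and 1 was lower, with a median log2 change of −0.03. The lower gene was Timp3, an inhibitor of the protease ADAM17 that sheds amphiregulin. Timp3 was at 13.48, 14.11 and 14.24 in the control cultures of tumors 1, 2 and 3 and at 13.07, 13.76 and 13.92 with RL. It was lower with RL in each tumor, with overlapping groups and a mean of −0.36 (SE 0.07, adjusted p 0.225 from limma and 0.00592 with a dye term). Rhbdf2, which carries ADAM17 to the cell surface, was the highest of the list at 0.14, and under median centering was −0.01, or 0.10 relative to the median of all genes. No gene of this list was above 0 in all 3 tumors, as 14.1% of all genes were. Timp3, Adam9 and Adam12 were below it, 3 of 8, where 13.5% of all genes were, with Adam9 and Adam12 named after their values were seen.

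Of 18 negative regulators of receptor and ERK signaling, 0 were higher and 1 was lower at an unadjusted p under 0.05. The median was −0.03, from −0.20 for Lrig1, which promotes the degradation of ERBB receptors and was the lower gene, to 0.10 for Dusp4, a phosphatase of ERK that under median centering was −0.06, or 0.05 relative to the median of all genes. A nearly equally bright probe of Lrig1 had ratios of −0.31, 0.12 and 0.06 in tumors 1, 2 and 3 and a mean of −0.04. Of 25 adaptors and kinases tested, 0 were higher and 1 was lower, with a median of −0.01. The lower gene was Pik3r1, a regulatory subunit of PI3K, at −0.20, and the highest was Nras at 0.14, which under median centering was −0.01, or 0.10 relative to the median of all genes, and was −0.02 and 0.04 from its dimmer probes. Of the 24 with a value on every array, 9 were below 0 in all 3 tumors, which is 37.5% where all genes gave 13.5%. Above 0 in all 3 tumors were 4, which is 16.7% where all genes gave 14.1%. Among the negative regulators 4 of 18 were below 0 in all 3 tumors, Lrig1, Socs5, Spry2 and Spry4, and 2 were above it, Cbl and Dusp4. That is 22.2% below, where all genes gave 13.5%, and 11.1% above, where all genes gave 14.1%. All of these regulators but Lrig1 and Dusp4 are named after their values were seen. Of 19 growth factor response genes tested, 2 were higher and 0 lower, with a median of 0.01. These were Junb, at 0.28 with ratios of 0.64, −0.07 and 0.28 in tumors 1, 2 and 3, and Klf6, at 0.27 with ratios of 0.31, 0.27 and 0.22, which is named after its values were seen. The lowest was Fos at −0.15, so the mean ratios of transcripts that ERK signaling induces lay on both sides of 0. In all 3 tumors 2 of the 19 were above 0, Klf6 and Emp1, and 2 below, Fos and Ier3. That is 10.5% in either direction, where all genes gave 14.1% above and 13.5% below. Emp1 and Ier3 are also named after their values were seen. Gab2 and Egr3 were not well above background in the channels needed.

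**Figure D3:**
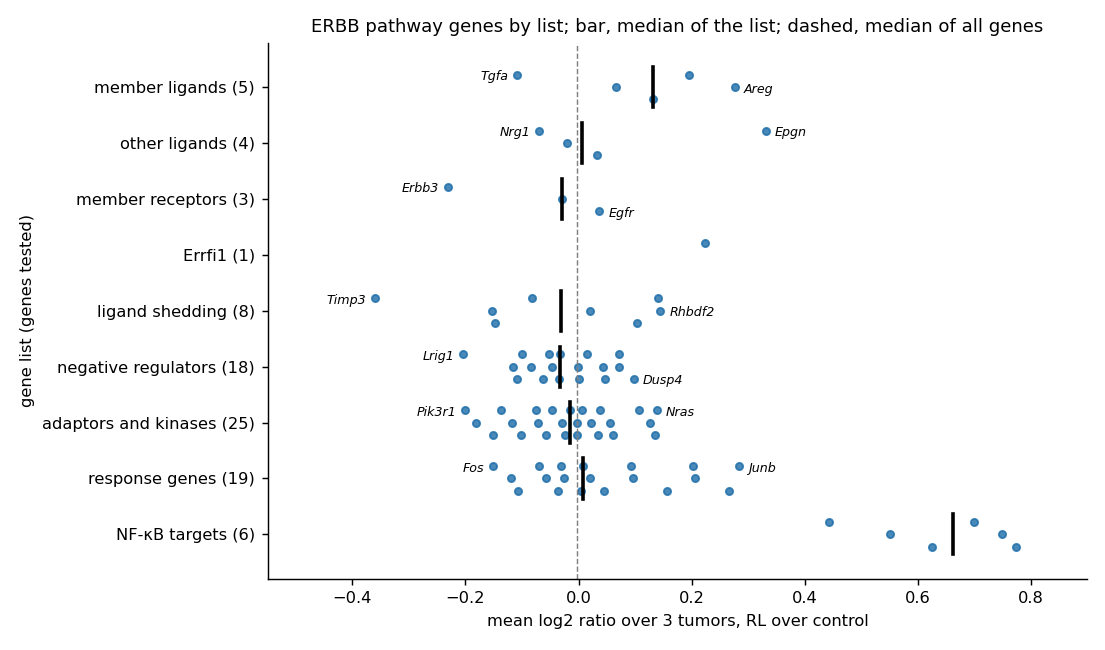
Mean log2 ratio of RL over control (horizontal axis) for each gene tested in the ERBB pathway lists and in the list of NF-κB targets, with the median of each list as a bar. Pathway lists center near 0, and the NF-κB targets have a median of 0.66.

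A list of 6 NF-κB target and pathway genes was chosen with earlier results known, so it is no independent check of the treatment. In all 3 tumors 6 of 6 were above 0, as were 14.1% of all genes. In limma 0 of 6 passed the adjusted p of 0.05, where 0.0276% of all genes did. With a dye term 6 of 6 did, where 1.3% of all genes did. By rank product 4 of 6 had a pfp under 0.05, where 0.405% of all genes did. The median ratio of this list in tumors 1, 2 and 3 was 1.20, 0.45 and 0.28. The ratios of Areg, Erbb2 and Erbb3 were also highest in tumor 1 and lowest in tumor 3, though those of tumors 2 and 3 were nearly equal, and for Erbb3 all were below 0. Errfi1, Hbegf and Btc were highest in tumor 1 and lowest in tumor 2, and Ereg, Egfr and Tgfa were highest in tumor 2.

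The cultures expressed epithelial markers, 8 of 8 well above background in every channel, with the brightest probe on Krt18. Their summed intensity was 329577, 260568 and 470996 in the control cultures of tumors 1, 2 and 3 and 266993, 284336 and 344730 with RL. Krt18 set much of these sums and was higher in the Cy5 channel of every array, at 17.62, 17.28 and 17.86 in tumors 1, 2 and 3 against 16.89, 16.85 and 17.16 in Cy3. It ran opposite to most of the list within tumors 1 and 2. With RL, 7 of the 8 markers were higher in tumor 1, all but Krt18, and 7 were lower in tumor 2, all but Krt18. In tumor 3, 7 were lower and 1 was higher, Epcam. Without Krt18 the sums were 128331, 142701 and 233227 in the control cultures and 145678, 125597 and 198660 with RL. Fibroblast markers were also measured, 8 of 8, with the brightest probe on Col1a1. Their sum was 9721, 4517 and 18697 in the control cultures and 8002, 4865 and 18239 with RL. With RL, 8 of the 8 were lower in tumor 1, 2 in tumor 2 and 5 in tumor 3. At an unadjusted p under 0.05, 1 of the 8 was lower, Pdgfra, below 0 in all 3 tumors with a mean of −0.19 (adjusted p 0.700), which was −0.10 without tumor 1. In the control cultures the fibroblast sum had the tumor order of Hbegf, Btc and Tgfa, which was also that of Egfr and of the sum of the myeloid markers. The epithelial sum had this order only with Krt18 in it. With RL, where the dyes were exchanged but the arrays were the same, the fibroblast sum kept this order. Egfr did too, with tumors 1 and 2 at 12.33 and 12.31. The myeloid sum did not, with tumor 2 the highest, but Itgam set much of it and was higher in the Cy5 channel of every array. Other probes of Itgam were far dimmer, at mean levels of 6.60 and 6.34 against 12.33 for the brightest. Without Itgam the myeloid sums were 2594, 1623 and 2626 in the controls of tumors 1, 2 and 3. With RL they were 2232, 1605 and 2697, so the sum of the rest had this order in both cultures. Taken singly, 2 of the 6 myeloid markers had it in the controls. Fewer cells of a type and less RNA per cell cannot be told apart in these cultures, and the part of cell composition in the values of the members was not tested. Myeloid markers had their brightest probe on Itgam, with 5 of 6 well above background in every control channel and 6 of 6 in every RL channel, and sums of 7317, 7025 and 8176 in the controls and 6776, 7667 and 7539 with RL. Of these, 5 of 6 were lower with RL in tumor 1, 3 in tumor 2 and 4 in tumor 3. At an unadjusted p under 0.05, 1 of the 6 was lower, Cd68, below 0 in all 3 tumors with a mean of −0.23 (adjusted p 0.559). Pdgfra and Cd68 are named after their values were seen, and in both lists no gene was higher at that level. Of the T cell markers, Cd3d and Cd8a were not well above background in any channel. The brightest probe was on Cd4, at a mean level of 9.82. Another Cd4 probe, printed in 10 spots, was at 6.18 and well above background in 0 control channels and 1 RL channel. The sums of the T cell markers were 1744, 1512 and 1534 in the controls and 1745, 1517 and 1457 with RL. Of the endothelial markers, Tek was not well above background in any channel, Cdh5 was well above it in too few channels to be tested, the brightest probe was that of Kdr, and the sums were 2223, 2251 and 2024 in the controls and 2437, 2172 and 2247 with RL. All 3 adipocyte markers were not well above background in any channel, with sums of 180.5, 184.9 and 176.8 in the controls and 180.9, 185.1 and 183.3 with RL.

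Relative to the median of all genes under median centering, the log2 change was 0.23 for Areg, 0.16 for Errfi1, 0.16 for Ereg and −0.16 for Erbb3. Without that median taken off it was 0.12 for Areg, 0.04 for Errfi1, 0.05 for Ereg and −0.28 for Erbb3, so these members kept their sign. Hbegf was then at −0.03, and at 0.08 relative to that median.

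**Figure D4:**
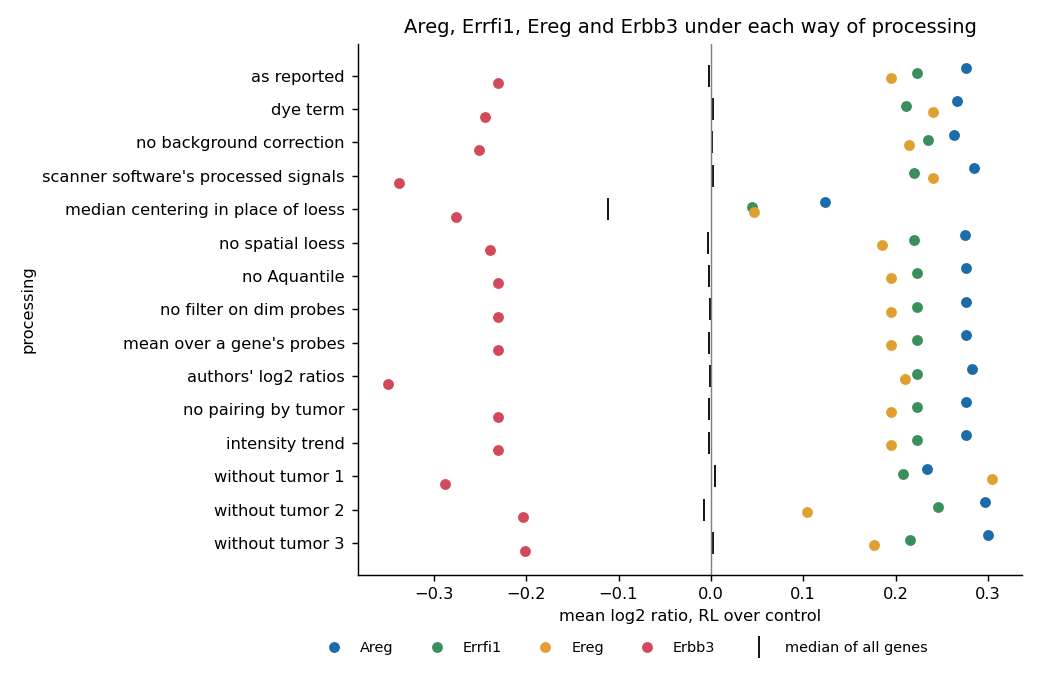
Mean log2 ratio of RL over control (horizontal axis) of Areg, Errfi1, Ereg and Erbb3 under each way of processing, with the median of all genes as a black mark. Areg, Errfi1 and Ereg stay above 0 and Erbb3 below 0 in every line, and median centering moves the median of all genes below 0.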

How the data were processed

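Per the file headers and the methods, the authors read each spot's intensity in both dyes with Agilent Feature Extraction 10.7.3.1 and deposited median spot and background intensities. They also deposited log2 ratios of the same arrays. Set against the scanner values, these were Cy5 over Cy3 (Pearson's r 0.885, 0.874 and 0.881 across spots in tumors 1, 2 and 3, after the sign was turned to RL over control), with medians of 0.00329, 0.000361 and 0.000888. The methods describe log2 ratios relative to control after normexp, loess and Aquantile, and the deposited table itself states neither scale, centering nor direction. The design assumed raw spot intensities, and the deposited medians were used for them.

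Here, in R 4.3.3 with limma 3.58.1, intensities were corrected with normexp (offset 50) and normalized by intensity loess, spatial loess (span 0.1) and Aquantile. Outlier spots were left out, and spots of a probe were averaged. No probe spot was saturated. The share of probes well above background lay between 54.6% and 56.2% over the channels. Probes well above background in all 3 control or all 3 RL channels were kept, 29429 of 55681, and the brightest stood for its gene. Accessions were named through RefSeq of GRCm38.p6, which matched 28026 probes. The array was designed on another build. Ratios were fitted by lmFit, moderated by eBayes (degrees of freedom 2 residual, 6.68 prior), with Benjamini-Hochberg adjustment over all genes, and the array pairs the cultures of a tumor by its code in the labels. The number of arrays limits the precision. The rank product used 1000 permutations.

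The members and lists were chosen with earlier results of these data known. Named are all members, the highest and lowest gene of each pathway list, and for the members with the highest and lowest ratio the 3 genes most like them. The 15 alternatives were a dye term, the scanner software's processed signals, no background correction, median centering, no spatial loess, no Aquantile, no filter on dim probes, the mean over probes, the authors' ratios, no pairing, the rank product, an intensity trend in eBayes, and each tumor left out.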

Additional observations from a re-analysis of the deposited data

How the results depend on the processing

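Of 135 values of members over 15 alternatives, 126 kept their direction and 9 changed sign. In 53 of them the log2 change equaled the reported one, because the alternative leaves the ratio as it is, so these could not change sign. Areg without tumor 2 was the only one to pass the adjusted p of 0.05. With median centering, the log2 change was −0.130 for Egfr, −0.0292 for Hbegf and −0.0687 for Btc, and the median of the members was −0.0687. It put the median of all genes at −0.11, and relative to that Hbegf was at 0.08 and Btc at 0.04, with their sign kept, and Egfr at −0.02. A dye term put Btc at −0.00385, and the mean over probes put Egfr at −0.0249. With tumors left out in turn, Btc lay between −0.14 and 0.20, Egfr between −0.0422 and 0.10 and Erbb2 between −0.12 and 0.0156. Tgfa was −0.0204 without tumor 3, against −0.11 as reported. The cause of the other changes of sign was not tested.

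The count of genes past the adjusted p of 0.05 was 1 higher and 5 lower as reported. It was 121 and 161 with a dye term, 6 and 12 without background correction, 0 and 0 with processed signals, 0 and 0 with median centering, 0 and 0 when the cultures were not paired by tumor (no replicate block), 0 and 3 with dim probes kept, 1 and 3 with the mean over probes, 2 and 7 with the authors' ratios, 37 and 51 by rank product and 9 and 21 with an intensity trend. With tumors left out in turn it lay between 0 and 557 higher and between 1 and 915 lower, with the highest counts without tumor 2, the array with RL in Cy5. As no member was called as reported, the fit without pairing had no call to lose. Erbb3, Btc and Tgfa were dim, though flagged as well above background, which limits their ratios, and Erbb4 was not well above background.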
